A study of Mus musculus with 9 samples.

Results

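Metallothioneins and the zinc export system were examined in CD8+ T cells from B16F10 tumours as 5 genes listed by symbol: the metallothionein genes Mt1, Mt2 and Mt3, the zinc exporter gene Slc30a1 and Mtf1, the gene of the metal-responsive transcription factor. All 5 were among the 23366 gene symbols of the deposited table, and 3 of them, Mt1, Mt2 and Mtf1, were abundant enough to be among the 10374 genes tested. Expression was measured by RNA sequencing in 9 bulk libraries. Of these, 5 came from wild-type C57BL/6 mice (WT) and 4 from C57BL/6 mice with the genotype IL27ra KO, a knockout of the interleukin 27 receptor alpha gene, and every mouse carried a B16F10 melanoma, a transplantable mouse tumour line. The sources used here do not give the age of the mice, which part of the gene was disrupted, in which cells, or whether animals were pooled. Nor do the labels tie each library to a mouse of its own, so p-values reflect library-to-library spread, part of which may be technical.

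Metallothioneins are small proteins whose many cysteines bind zinc and copper, and they buffer free metal and oxidants in the cell. MTF-1, the product of Mtf1, senses zinc and switches on Mt1, Mt2 and Slc30a1 by binding short sequences called metal response elements, while ZnT1, the product of Slc30a1, moves zinc out across the plasma membrane. In tumour-infiltrating CD8+ T cells, metallothionein expression has been linked to the dysfunctional state.

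Il27ra itself, the targeted gene, was measured at 25.7, 5.14, 15.2, 14.4 and 15.8 FPKM in WT replicates 1 to 5 and at 4.09, 6.5, 5.62 and 7.8 FPKM in IL27ra KO replicates 1 to 4, where FPKM are fragments per kilobase of transcript scaled to the depth of the library. The library labelled WT replicate 2 lay inside the IL27ra KO range, against its label, and the name WT replicate 2 below stands for that label only. The difference, IL27ra KO minus WT, was -1.10 on the log2(FPKM + 1) scale, past the exact permutation test (two-sided p = 0.0397) and short of limma's threshold of 0.05 (adjusted p = 0.0996). In the mean levels of the gene lists that follow, WT replicate 2 lay outside the IL27ra KO range. The mean log2 level of 9 T cell dysfunction genes, described below, was 5.52 in it and 2.59 to 3.27 in IL27ra KO. That of macrophage genes was 2.68 and 3.47 to 4.93. Single genes went both ways. Cd74 in WT replicate 2 was 164.57 FPKM, inside the IL27ra KO range of 148.08 to 732.4. Csf1r was 1.7 FPKM, outside the range of 10.99 to 49.03. Whether the label of WT replicate 2 is right was not tested. The summed FPKM of a library was 263888 to 431078, and the ribosomal precursor Rn45s made up 23.9% to 30.01% of it in 7 libraries but 53.8% and 50.8% in WT replicates 3 and 4.

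The coding sequences of the metallothioneins are shown because the cysteine codons, TGC and TGT, given in capitals, carry the metal-binding residues and show how alike the genes are. They are from the GENCODE M21 transcripts of each gene, 5′ to 3′ with the stop codon.
Mt1: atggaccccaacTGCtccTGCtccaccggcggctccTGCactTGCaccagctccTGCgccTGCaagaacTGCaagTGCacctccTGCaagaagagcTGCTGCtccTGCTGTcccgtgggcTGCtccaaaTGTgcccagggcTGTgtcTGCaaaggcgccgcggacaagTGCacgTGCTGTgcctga
Mt2: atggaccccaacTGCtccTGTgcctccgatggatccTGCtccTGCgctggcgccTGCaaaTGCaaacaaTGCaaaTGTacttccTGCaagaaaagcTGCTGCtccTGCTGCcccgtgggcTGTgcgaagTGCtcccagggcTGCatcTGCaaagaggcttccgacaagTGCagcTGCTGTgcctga
Mt3: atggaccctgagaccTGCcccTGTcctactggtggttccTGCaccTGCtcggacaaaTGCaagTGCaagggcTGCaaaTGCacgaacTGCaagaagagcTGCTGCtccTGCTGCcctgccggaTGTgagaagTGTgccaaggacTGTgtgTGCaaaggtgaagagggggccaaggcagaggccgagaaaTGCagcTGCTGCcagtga
Of the 61 codons of Mt1 and of Mt2 before the stop, 20 were cysteine codons (32.8%), and all 20 stood at the same positions in both genes. Mt3 had 20 among 68 codons (29.4%). Mt1 and Mt2 agreed at 148 of 186 coding bases (79.6%), and the longest run they shared was 20 bases, in the coding sequence and over the whole transcripts. RSEM, the program that made the deposited values, divides fragments that match several genes. Only a read of 20 bases or fewer could match both of these transcripts without a mismatch. How far fragments divided between Mt1 and Mt2 moved either value was not tested.

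FPKM are per length, so levels of different genes can be set side by side. Mt1 was the most abundant of the 5 genes, with a mean of 147 FPKM over the 9 libraries, rank 194 among all genes in the table. Mt2 had a mean of 53.4 FPKM and rank 538. Mt1 was above Mt2 in 9 of 9 libraries, and Mt2 was above Mt3, Slc30a1 and Mtf1 in 9 of 9. The other 3 genes had low FPKM, with means over all libraries of 1.31 FPKM for Mtf1, 0.863 FPKM for Mt3 and 0.733 FPKM for Slc30a1. Their ranges overlapped, and their order differed between libraries. Mtf1 was above Slc30a1 in every WT library and below it in IL27ra KO replicates 1 and 2. From the spacing of low values in genes with 1 annotated transcript, the libraries held an estimated 1740000 to 4080000 fragments. On that estimate Mt1 rested on about 82 to 420 fragments per library, Mt2 on 20 to 180, Mtf1 on 19 to 39, Slc30a1 on 5.9 to 22 and Mt3 on 0 to 5.9.

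Mt1 had similar means in both groups, and its WT values were widely spread. The WT libraries, replicates 1 to 5, had 224.8, 266.5, 85.3, 81.0 and 95.8 FPKM (mean 150.7 ± 88.1, SD, n = 5). The IL27ra KO libraries, replicates 1 to 4, had 178, 151, 134 and 106 FPKM (mean 142 ± 30.2, SD, n = 4). WT replicates 1 and 2 were the 2 highest of the 9 libraries, WT replicates 3, 4 and 5 the 3 lowest, and all 4 IL27ra KO libraries fell in the gap between them. Of the 3 lowest, WT replicates 3 and 4 were those with the high Rn45s share, and WT replicate 5 had the lowest share; the part of this in Mt1 was not tested. The difference, IL27ra KO minus WT, was 0.09 on the log2(FPKM + 1) scale (SE 0.36, 95% interval -0.69 to 0.86) and missed the threshold (limma, adjusted p = 0.948; exact permutation test, two-sided, p = 0.849). The interval spans 0.621-fold to 1.82-fold, so a change of that size in either direction is not resolved by these libraries.

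Mt2 showed the same split within WT. Its WT values were 103, 129.9, 22.6, 29.9 and 29.7 FPKM in replicates 1 to 5 (mean 63.0 ± 49.8, SD, n = 5). In IL27ra KO it stood at 50.8, 41.6, 47.4 and 26.4 FPKM in replicates 1 to 4 (mean 41.5 ± 10.8, SD, n = 4). WT replicates 1 and 2 were again the highest, and the other WT libraries overlapped the IL27ra KO range. The difference was -0.27 (SE 0.47, 95% interval -1.27 to 0.74; limma, adjusted p = 0.862; exact permutation test, two-sided, p = 0.627). The highest WT library had 5.75 times the Mt2 and 3.29 times the Mt1 of the lowest, against 1.92 and 1.68 times in IL27ra KO. On the log2 scale the SD of Mt1 was 0.819 in WT and 0.312 in IL27ra KO, and that of Mt2 was 1.14 and 0.413, a difference in spread that was not tested.

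**Figure D1:**
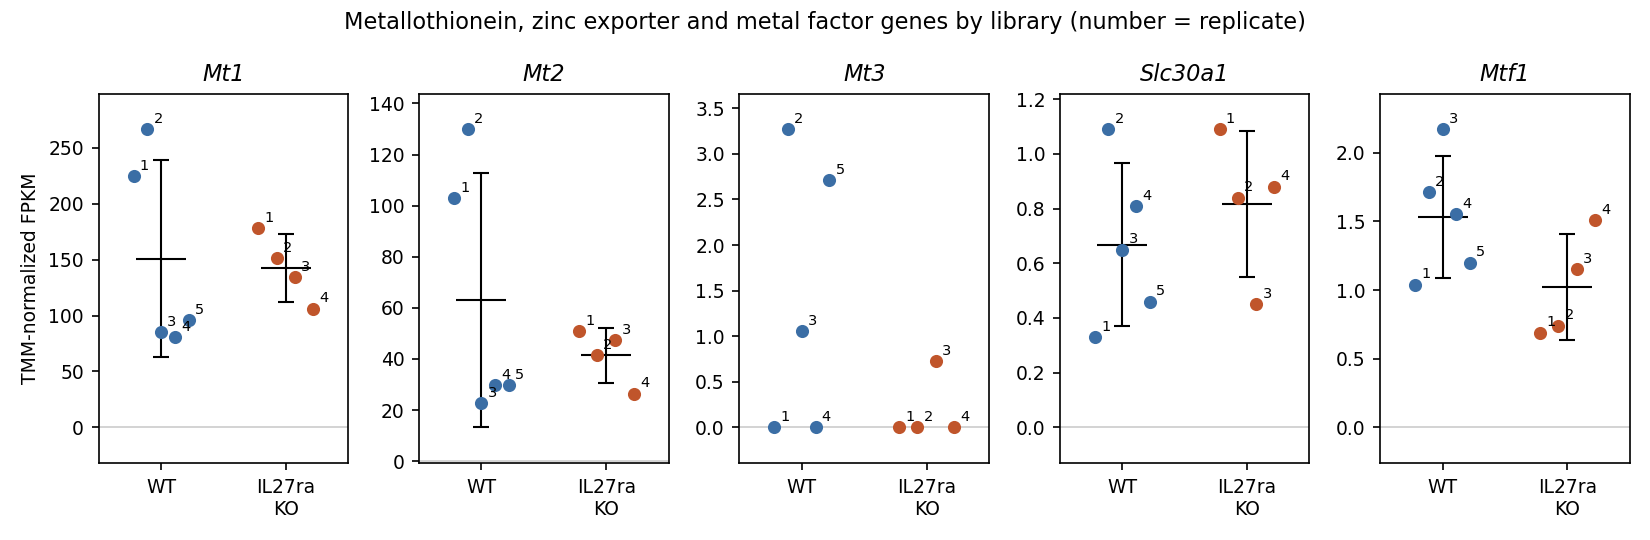
Each panel plots 1 gene in TMM-normalized FPKM on a linear axis, with 1 point per library numbered by replicate, WT in blue and IL27ra KO in orange, and, except for Mt3, the group mean with its SD. WT replicates 1 and 2 stand above the other libraries for Mt1 and Mt2, and the groups overlap for all 5 genes.

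The sign of both differences depended on which library was included. Without WT replicate 2 the difference was 0.34 for Mt1 (limma, adjusted p = 0.627) and 0.08 for Mt2 (adjusted p = 0.946), and over the 9 fits that left out 1 library in turn it ran from -0.09 to 0.34 for Mt1 and from -0.53 to 0.08 for Mt2, with no adjusted p under 0.05 (lowest 0.627 and 0.649).

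Mt1 and Mt2 varied together from library to library. Across the 9 libraries the correlation of their log2(FPKM + 1) values was 0.949 (Pearson; Spearman 0.867), and it was 0.977 for deviations from the group means and 0.884 without WT replicates 1 and 2, the libraries farthest from the median. These are descriptions of 9 points that share the scaling of each library. Mt1 was 2.05 to 4.02 times Mt2, with the lowest quotients, 2.19 and 2.05, in WT replicates 1 and 2, where both genes were highest, and the highest, 4.02, in IL27ra KO replicate 4. The log2 ratio of Mt2 to Mt1 was -1.42 ± 0.354 in WT (SD, n = 5) and -1.77 ± 0.206 in IL27ra KO (SD, n = 4), and the difference of -0.352 was within the spread (two-sided exact permutation p = 0.143, adjusted over 3 ratios 0.429).

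**Figure D2:**
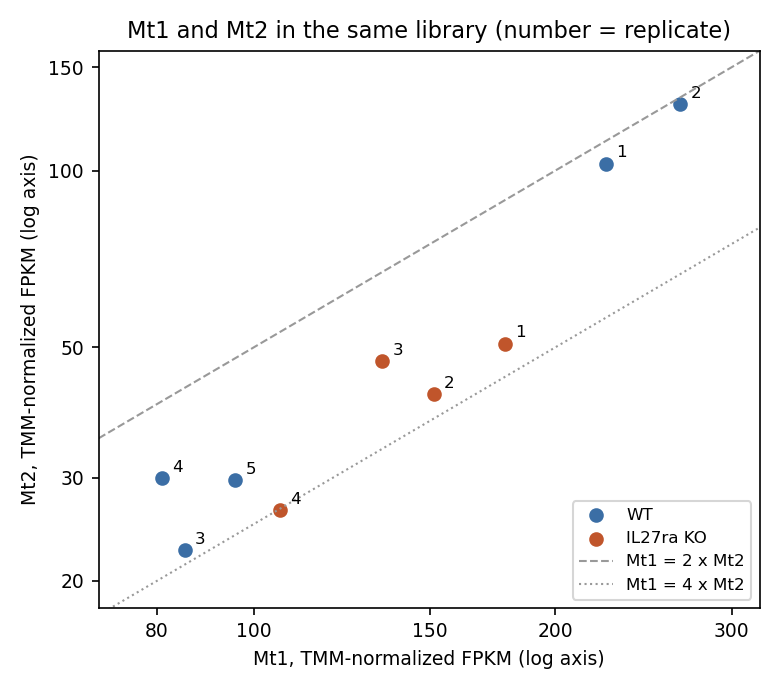
Mt2 is plotted against Mt1 in TMM-normalized FPKM, both on log axes, with 1 point per library numbered by replicate (WT blue, IL27ra KO orange) and lines where Mt1 is 2 or 4 times Mt2. The 9 points lie close to or between the lines, with WT replicates 1 and 2 at the upper right.

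Because the 2 genes varied together, the sequences around their starts are shown, with matches to the metal response element core in capitals. The core was searched as TGCACNC and TGCGCNC on both strands, and no matches of the 2 forms overlapped in these windows. Each window runs from 250 bases before to 50 bases after the RefSeq start, on the plus strand of GRCm38.p6. That build is not mm9, the one named in the submitters' processing notes. All 5 genes were found in the RefSeq table.
Mt1, chr8:94178839-94179138: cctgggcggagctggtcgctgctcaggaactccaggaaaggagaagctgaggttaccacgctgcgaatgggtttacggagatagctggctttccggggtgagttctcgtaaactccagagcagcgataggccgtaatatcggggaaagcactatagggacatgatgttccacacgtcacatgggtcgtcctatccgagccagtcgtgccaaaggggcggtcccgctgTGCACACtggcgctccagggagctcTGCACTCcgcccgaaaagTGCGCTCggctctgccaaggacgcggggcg
Mt2, chr8:94172368-94172667: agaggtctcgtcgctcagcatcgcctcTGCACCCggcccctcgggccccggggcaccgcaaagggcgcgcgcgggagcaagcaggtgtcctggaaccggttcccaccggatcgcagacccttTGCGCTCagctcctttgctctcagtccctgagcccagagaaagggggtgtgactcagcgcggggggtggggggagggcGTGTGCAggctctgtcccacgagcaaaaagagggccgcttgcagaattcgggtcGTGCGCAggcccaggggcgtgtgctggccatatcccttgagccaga
The Mt1 window held 3 matches, starting 23 bases before and 3 and 21 bases after the start, all on the strand of the gene. The Mt2 window held 4, starting at -223 and -128 on the strand of the gene and at -50 and 5 on the opposite strand. Slc30a1 had 2 matches, Mt3 had 1 and Mtf1 had 0 in windows of the same length. Among 32851 promoter windows of 300 bases in that table, 25.7% held at least 1 match, 7.11% at least 2, 1.97% at least 3 and 0.517% at least 4. GENCODE M21 gives further starts 122 and 152 bases downstream of this Mt1 start and 242 bases downstream of this Mt2 start, outside these windows. A match is a description of the letters and not a measured binding site.

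Mtf1, the gene of the factor that reads these elements, was low in every library and had a lower mean in IL27ra KO without passing. Its WT values were 1.04, 1.71, 2.17, 1.55 and 1.20 FPKM (mean 1.53 ± 0.445, SD, n = 5) and its IL27ra KO values 0.69, 0.74, 1.15 and 1.51 FPKM (mean 1.02 ± 0.385, SD, n = 4). IL27ra KO replicates 1 and 2 were the lowest libraries, and replicates 3 and 4 lay inside the WT range. The difference was -0.33 (SE 0.22, 95% interval -0.80 to 0.15; limma, adjusted p = 0.56; exact permutation test, two-sided, p = 0.119), and -0.30 without WT replicate 2 (adjusted p = 0.578). WT replicate 1, with high Mt1, had one of the lower Mtf1 values, 1.04 FPKM, and WT replicate 2, with the highest Mt1, had the second highest, 1.71 FPKM. The correlation of Mt1 with Mtf1 over the 9 libraries was -0.385 (Spearman -0.433), and that of Mt2 with Mtf1 was -0.233 (Spearman -0.4). Without WT replicates 1 and 2, the libraries farthest from the median, they were -0.884 and -0.876 over the other 7, so the size of this description rests on those libraries. The log2 ratio of Mt1 to Mtf1 differed by 0.413 between the groups, within the spread (two-sided exact permutation p = 0.46, adjusted over 3 ratios 0.69).

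Slc30a1, which encodes the exporter ZnT1, was below the 1 FPKM mean required for testing. The WT libraries had 0.33, 1.09, 0.65, 0.81 and 0.46 FPKM (mean 0.668 ± 0.298, SD, n = 5) and the IL27ra KO libraries 1.09, 0.84, 0.45 and 0.88 FPKM (mean 0.815 ± 0.267, SD, n = 4). The groups overlapped nearly completely, and the highest value, 1.09 FPKM, occurred in both. The difference of means was 0.13 on the log2(FPKM + 1) scale (two-sided exact permutation p = 0.429), and 0.21 without WT replicate 2. WT replicate 1, with high Mt1, had the lowest Slc30a1, and WT replicate 2, with the highest Mt1, shared the highest, and the correlation of the 2 genes over 9 libraries was 0.165. The log2 ratio of Mt1 to Slc30a1 differed by -0.0415 between the groups (two-sided exact permutation p = 0.937, adjusted over 3 ratios 0.937).

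Mt3, a metallothionein known best from the brain, was listed at 0 in 5 of the 9 libraries. The WT libraries had 0, 3.27, 1.06, 0 and 2.71 FPKM and the IL27ra KO libraries 0, 0, 0.73 and 0 FPKM. The nonzero values correspond to an estimated 3.9, 0.99 and 5.9 fragments in WT replicates 2, 3 and 5 and 0.99 in IL27ra KO replicate 3. A difference could not be resolved at this depth (two-sided exact permutation p = 0.206 on the log2 values). WT replicate 1, where Mt1 and Mt2 were high, had 0, and WT replicate 5, where they were low, had 2.71 FPKM. Mt4 was listed at 0 in every library.

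None of the 3 tested genes passed, against a background of 4.24% of all 10374 tested genes (limma, adjusted p under 0.05), 3.13% higher and 1.11% lower in IL27ra KO. None of the 3 had groups that did not overlap, against 6.73% of all tested genes. Their changes ran from -0.33 to 0.09, with a median of -0.27, beside 0.02 for all tested genes. None of the 23 other settings of the fit brought Mt1, Mt2 or Mtf1 past the threshold.

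The other zinc carriers were measured in the same libraries. The Slc30 family moves zinc out of the cytosol, and 5 of its 10 members were tested. All 5 had differences above 0, none passed, and the median change was 0.12. Slc30a4, a vesicular exporter, had 0.42, 0.80, 0.63, 0.93 and 0.80 FPKM in WT and 1.28, 2.03, 1.29 and 1.00 FPKM in IL27ra KO. Its groups did not overlap, alone among the 5 tested members of the family, against 6.73% of all tested genes. Its change of 0.47 did not pass (SE 0.22, limma adjusted p = 0.315). The two-sided exact permutation p was 0.00794, the smallest that test can give. Over the 19 other fits that tested Slc30a4 the change ran from 0.01 to 0.88 and never passed. Slc30a5, with 8.52 ± 1.36 FPKM in WT and 8.65 ± 1.89 in IL27ra KO, and Slc30a9, with 7.05 ± 1.98 and 8.63 ± 0.781, were the most abundant of the family (SD, n = 5 and n = 4) and had differences of 0.01 and 0.29 (limma, adjusted p = 0.991 and 0.585). Slc30a6 and Slc30a7 had differences of 0.03 and 0.12 (adjusted p = 0.974 and 0.858). Slc30a3 and Slc30a10 were listed at 0 in every library.

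The Slc39 family brings zinc into the cytosol, and of its 14 members 10 were tested. None passed, 6 were above 0 and 4 below, and the median change was 0.18. Slc39a1, which encodes the plasma membrane importer ZIP1, had 19.5, 11.3, 17.3, 14.2 and 22.7 FPKM in WT and 34.5, 32.8, 31.3 and 22.5 FPKM in IL27ra KO. IL27ra KO replicates 1 to 3 stood above every WT library, and replicate 4 was just under the highest WT value. Its change of 0.82 missed the threshold (SE 0.22; limma, adjusted p = 0.0607; exact permutation test, two-sided, p = 0.0238), and it passed in 6 of 23 other fits, among them those without IL27ra KO replicate 4 (0.95, adjusted p = 0.0306), with library weights (0.78, adjusted p = 0.00823) and with libraries scaled on CD8 T cell genes (1.52, adjusted p = 0.011, where the median of all genes was 0.63). Slc39a4, which encodes the importer ZIP4, had 2.98, 2.77, 6.41, 3.06 and 6.76 FPKM in WT and 1.63, 1.31, 1.06 and 2.97 FPKM in IL27ra KO. Its change of -0.95 missed the threshold too (SE 0.28; limma, adjusted p = 0.0873; exact permutation test, two-sided, p = 0.0317), and it passed in 3 of 22 other fits, those with library weights (-1.14, adjusted p = 0.00746), without IL27ra KO replicate 4 (-1.14, adjusted p = 0.0345) and without that library and WT replicate 2 (-1.25, adjusted p = 0.017). Without WT replicate 2 alone Slc39a1 was 0.69 (adjusted p = 0.0587) and Slc39a4 -1.06 (adjusted p = 0.0592). With the macrophage level as a covariate Slc39a4 was -0.21 (adjusted p = 0.909) and Slc39a1 0.77 (adjusted p = 0.56). That fit cannot tell the macrophage level from the genotype, because the level did not overlap between the groups. Leaving out 1 library gave adjusted p up to 0.294 for Slc39a4 and 0.213 for Slc39a1. Slc39a14, an importer of zinc and iron, had means of 1.35 ± 0.260 and 0.84 ± 0.224 FPKM (SD, n = 5 and n = 4), a difference of -0.36 (limma, adjusted p = 0.457; exact permutation test, two-sided, p = 0.0159). Slc39a3, Slc39a10, Slc39a11 and Slc39a13 had differences of 0.41, 0.37, 0.46 and 0.21 (adjusted p = 0.408, 0.592, 0.328 and 0.705), and Slc39a6, Slc39a7 and Slc39a9 by -0.05, -0.01 and 0.14 (adjusted p = 0.929, 0.996 and 0.854).

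**Figure D3:**
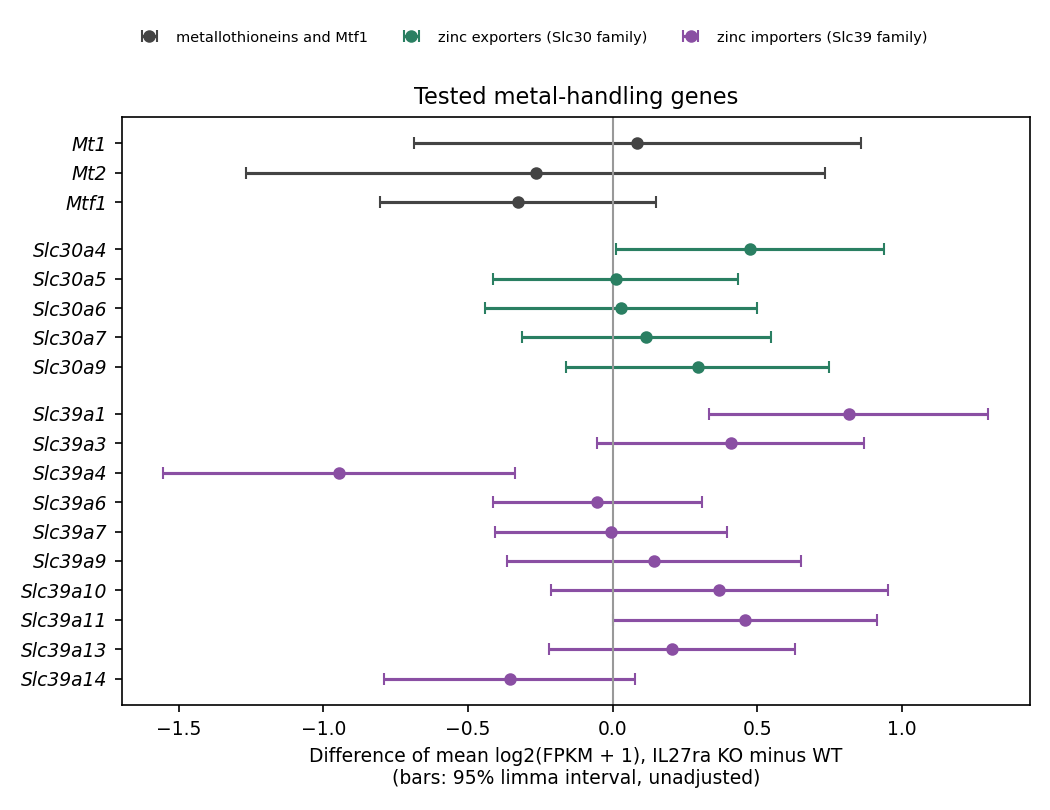
Points give the difference of mean log2(FPKM + 1), IL27ra KO minus WT, for the 3 tested genes of the metallothionein group and the tested Slc30 and Slc39 genes, with 95% limma intervals that are not adjusted for the number of genes. The intervals of Slc39a1 and Slc39a4 lie farthest from 0 on either side, and neither gene passed after adjustment over all genes.

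Among genes of related responses, none of 8 tested copper handling genes, 9 NRF2 and oxidative stress genes or 12 hypoxia response genes passed, with median changes of 0.26, 0.29 and -0.14. Sod1, the copper and zinc superoxide dismutase, had 135 ± 78.0 FPKM in WT and 187 ± 8.61 in IL27ra KO (n = 5 and n = 4, with SD), which missed the limma threshold (adjusted p = 0.445), and Cox17, a mitochondrial copper chaperone, had 59.6 ± 32.9 and 38.6 ± 2.47 FPKM (adjusted p = 0.533). The copper transporter genes Slc31a1 and Slc31a2 had differences of 0.26 and 0.37 (adjusted p = 0.608 and 0.535). In the NRF2 list the smallest p belonged to Srxn1, Txnrd1, Nfe2l2 and Hmox1, with differences of 0.49, 0.55, 0.45 and 0.45 (adjusted p = 0.375, 0.405, 0.533 and 0.571). In the hypoxia list it belonged to Pdk1, Egln3, Car9 and Vegfa, with differences of -0.43, -0.35, 0.35 and 0.25 (adjusted p = 0.516, 0.561, 0.642 and 0.786).

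Genes of the T cell dysfunction state were lower in IL27ra KO. Of 9 genes listed for that state, chosen with their fall in these libraries known, 8 fell (limma), beside 1.11% of all tested genes. The count was 7 without WT replicate 2 and IL27ra KO replicate 4, and 1 with the macrophage level as a covariate. The median change was -2.13, and the smallest p belonged to Lag3 (-3.53), Pdcd1 (-3.36), Tox (-2.13) and Havcr2 (-2.46). The 1 gene that did not pass, named after its values were seen, was Gata3, a transcription factor (0.10, limma, adjusted p = 0.924). Prdm1 and Entpd1 both lost their calls with equal totals, CD8 T cell identity scaling, the replicate block, the melanoma covariate and without IL27ra KO replicate 1. Entpd1 passed in 3 of the 9 fits without 1 library (adjusted p up to 0.119). The fit with the macrophage covariate cannot tell that level from the genotype, because it did not overlap between the groups. The mean log2 level of the 9 genes was 4.21 to 5.52 in WT and 2.59 to 3.27 in IL27ra KO, ranges that did not overlap, whereas Mt1 in IL27ra KO lay inside its WT range. The correlation over 9 libraries with the level of this list was 0.04 for Mt1, 0.24 for Mt2 and 0.57 for Mtf1 (0.29, 0.25 and 0.12 for deviations from the group means), as a description. The difference between the change of the list and that of the metallothioneins was not tested.

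Markers of other cells differed between the libraries, and their values are given beside the metallothioneins. In bulk samples fewer cells of a type and less RNA per cell cannot be told apart. The CD8 T cell identity list had a mean log2 level of 6.00 to 6.62 in WT and 4.97 to 6.27 in IL27ra KO. Of its 15 genes 2 passed as lower, Cd3e and Cd8a, beside 1.11% of all tested genes. Cd8a was between 25.2 and 114.9 FPKM in all libraries. All 15 differences were below 0, with a median of -0.73. The count of 2 depended on single libraries: it was 10 without IL27ra KO replicate 4, 1 without WT replicate 1, 2 or 4, and 0 when IL27ra KO replicate 1, 2 or 3 or WT replicate 3 or 5 was left out. It was 14 without WT replicate 2 and IL27ra KO replicate 4 together. Of 21 tested macrophage and monocyte genes 20 rose, beside 3.13% of all tested genes, and Cx3cr1 did not pass. The summed level of the macrophage list was 83.5 to 391 FPKM in WT and 511.8 to 1762 FPKM in IL27ra KO. No gene of the list was at 0 throughout. Of 6 tested dendritic cell genes 5 rose, Itgax, Cd74, H2-Ab1, H2-Aa and Cd209a, beside 3.13% of all tested genes, and Zbtb46 did not pass (-0.25). That count was 1, Itgax alone, without IL27ra KO replicate 1, 2 or 3, and 3 without WT replicate 1 or 3. The summed levels of the 10 listed genes were 19.2 to 434 and 374 to 1755 FPKM, and Cd74, H2-Ab1 and H2-Aa were the most abundant. Flt3, Xcr1, Clec9a and Batf3 were too low to be tested, with differences of 0.19, -0.16, 0.01 and 1.065. The listed genes therefore did not move together. None of 11 melanoma genes passed, with summed levels of 389 to 1275 and 585 to 1385 FPKM. All 11 differences were above 0, with a median of 0.52, and 2 had an unadjusted limma p under 0.05. Some of these genes passed as higher in 5 of the other settings, so a rise in melanoma RNA is not excluded. Of the B cell, NK cell, CD4 and regulatory T cell, and stroma and endothelium lists 1 gene each was tested, and of the neutrophil list 2, and none passed. The list genes named here were chosen after their values were seen. The neutrophil genes Retnlg, Mpo, Ngp and Camp and the B cell gene Ms4a1 were at 0 in every library.

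The marker levels differed between the libraries highest in metallothioneins. WT replicates 1 and 2, the libraries highest in both genes, had macrophage list levels of 1.11 and 2.68 on the log2 scale, melanoma levels of 5.23 and 4.01 and CD8 identity levels of 6.04 and 6.62. IL27ra KO replicates 1 to 3, with macrophage levels of 4.72, 4.50 and 4.93, had less Mt1 and Mt2 than either. They had more of both genes than WT replicates 3, 4 and 5, whose macrophage levels were 1.2, 1.92 and 2.36. IL27ra KO replicate 4 had the lowest macrophage level of its group, 3.47, and the lowest Mt1 and Mt2 of its group. Over the 9 libraries the correlation of Mt1 with the 17 lists ran from -0.47 for the Slc39 family to 0.75 for copper handling. It was 0.18 with the macrophage list, -0.06 with CD8 identity, -0.23 with melanoma, 0.44 with glucocorticoid response genes and 0.63 with the hypoxia list. Among the cell type lists it was highest with the neutrophil list, 0.68 (0.79 for deviations from the group means; Mt2 0.55 and 0.81), of which 4 genes were at 0 in every library and 2 were tested. Mtf1 correlated at 0.72 with CD8 identity and -0.62 with the macrophage list (0.54 and -0.29 for deviations from the group means). WT replicate 1 had the highest hypoxia level, 4.06, and WT replicate 2 had 3.24, inside the range of the other libraries. The part of these lists in the level of Mt1 and Mt2 was not tested beyond the fits with the macrophage or melanoma level as a covariate, in which the Mt1 difference was -0.60 (SE 0.83; limma, adjusted p = 0.771) and 0.26 (SE 0.38; adjusted p = 0.858). The first of these fits cannot tell the macrophage level, 1.11 to 2.68 in WT and 3.47 to 4.93 in IL27ra KO, from the genotype. Scaling each library on its CD8 T cell genes moved the median of all genes to 0.63 and the Mt1 difference to 0.81 (limma, adjusted p = 0.111).

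**Figure D4:**
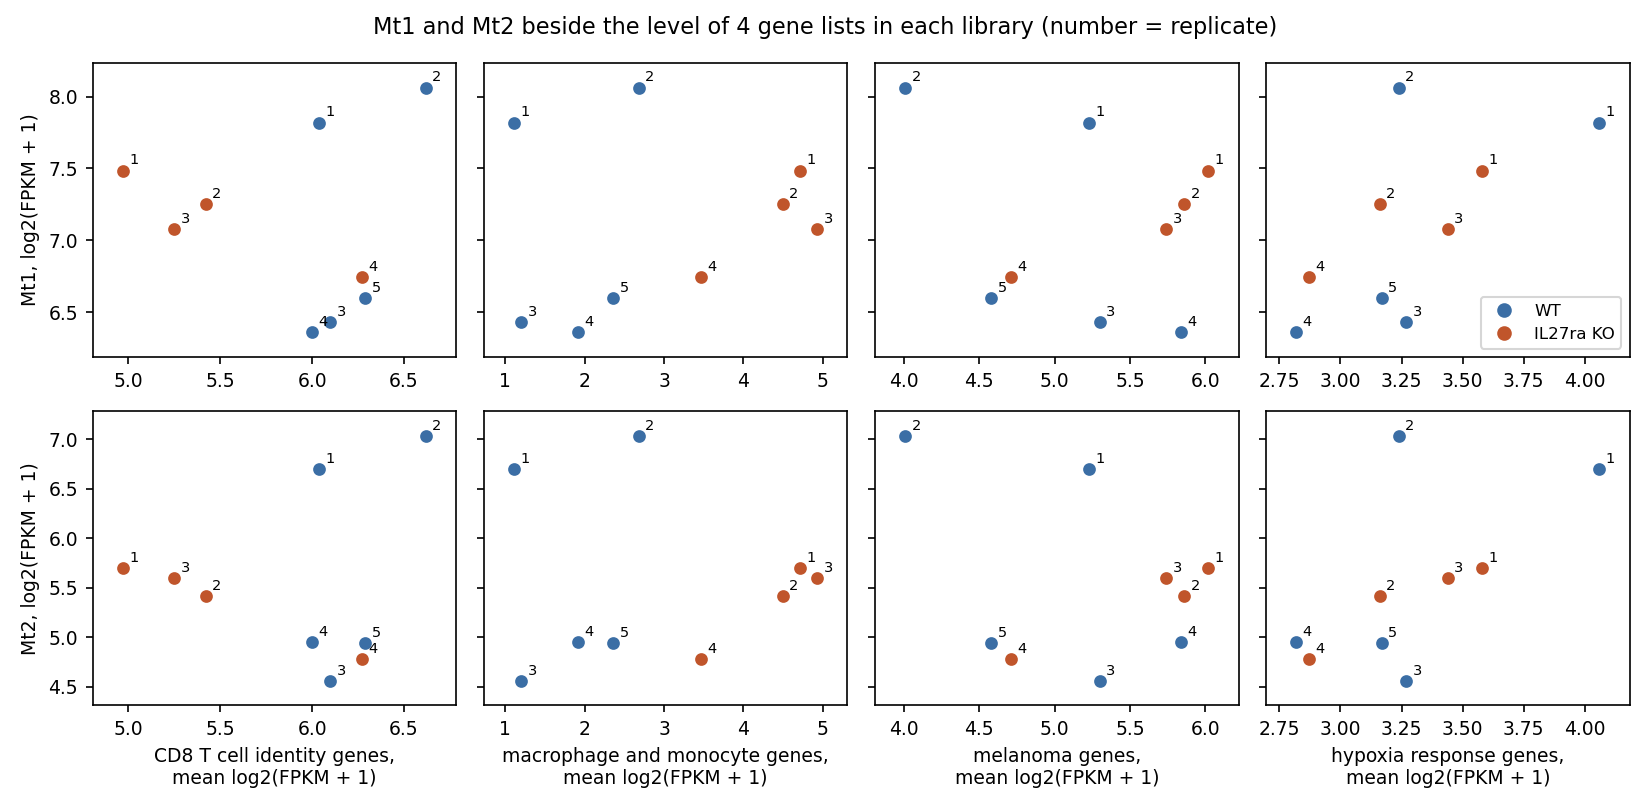
The upper and lower panels plot log2(FPKM + 1) of Mt1 and of Mt2 against the mean log2(FPKM + 1) of the CD8 T cell identity, macrophage and monocyte, melanoma and hypoxia response genes, 1 point per library numbered by replicate (WT blue, IL27ra KO orange). WT replicates 1 and 2 are highest in both genes while differing from each other in all 4 lists.

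The genes whose values most resembled those of Mt1 over the 9 libraries, among 5721 others with a mean of at least 5 FPKM, were Hsp90aa1, a cytosolic chaperone (r = 0.956), Mt2 (0.949), Bsg, which encodes basigin (0.923), Pex7, a peroxisomal import receptor (0.923), and Smim4 (0.919). Hsp90aa1 had 135, 145, 89.3, 86.6 and 93.8 FPKM in WT and 108, 120, 116 and 100.3 FPKM in IL27ra KO, with the IL27ra KO libraries again between WT replicates 1 and 2 and the other WT libraries. Its own difference between the groups was 0.05 (limma, adjusted p = 0.95). Without WT replicates 1 and 2 its correlation with Mt1 was 0.883. For Mt2 the most similar were Trmt6, a subunit of a tRNA methyltransferase (0.951), Mt1 (0.949), Smim4 (0.932), Mrps35, a mitochondrial ribosomal protein (0.929), and Tex30 (0.927). Mt1 ranked second for Mt2 and Mt2 second for Mt1. For Mtf1 they were Adrbk1, a kinase of G protein-coupled receptors (0.946), Cbll1 (0.936), Gak (0.933), Atxn7l1 (0.933) and Tbx21, which encodes T-bet (0.924). With 9 points and 5721 or 5722 genes compared, these correlations are a description only.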

How the data were processed

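RNA from lysates of bulk CD8+ T cells was cleaned on SPRI beads and turned into libraries with an adaptation of SMART-Seq 2, per the labels' protocols. The authors deposited 1 table of gene-level FPKM made with RSEM and scaled by TMM, per the labels. TopHat, RSEM, DESeq and the build mm9 are named, per the submitters' processing notes, without versions or roles. TMM takes most genes as unchanged, so other cells in a library can shift all its values. Without molecular identifiers, PCR copies of a fragment are counted too.

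Deposited FPKM were turned into log2(FPKM + 1). Genes averaging 1 FPKM or more were kept, and IL27ra KO was compared with WT by limma 3.58.1 in R 4.3.3, with a trended eBayes step, Benjamini-Hochberg adjustment over all tested genes and a threshold of 0.05. Single values and ratios had a two-sided exact permutation test over the 126 splits into 5 and 4. The smallest p it can give is 0.00794. Fragments per library were estimated from low values of 2448 genes with 1 GENCODE M21 transcript of 1000 to 4000 bases. Of those values 67.8% to 72.5% fell no more than 0.1 from a whole multiple of the estimated value of 1 fragment. Evenly spread values would give 20% for a value fixed beforehand. That estimate was fitted in each library to the same low values, so the share is not an independent check. No counts were recovered, so no count test was used. The fits were tested on simulated data.

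The 23 other settings were quantile, total, median and CD8 T cell identity scalings, pseudocounts of 0.1 and 5, a filter at 5 FPKM or none, robust and weighted fits, a replicate block, macrophage or melanoma level as a covariate, each of 9 libraries left out, and WT replicate 2 and IL27ra KO replicate 4 left out together. The members and lists were chosen with earlier results of these data known. Named genes were the members, tested Slc30 and Slc39 genes, up to 4 genes per related list by smallest p, and the 5 genes most correlated with each tested member.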

Additional observations from a re-analysis of the deposited data

Results flagged for a closer look

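The values of the named genes were checked for a library far from the rest of its group, by the gap to the nearest value over the group's range on the log2(FPKM + 1) scale. Of 112 checks, 4 stood out, and chance alone gives about 1 in 20. Mt3 in IL27ra KO replicate 3 was 0.73 FPKM with the other 3 libraries of the group at 0, a value worth about 1 fragment. Slc39a10, a zinc importer gene, was lowest in IL27ra KO replicate 4, at 5.05 FPKM against 6.82 to 7.20 in the others. Txnrd1, thioredoxin reductase 1, was lowest in WT replicate 2, at 4.78 FPKM against 12.4 to 16.3 in the other WT libraries. Vegfa, the vascular growth factor of the hypoxia list, was highest in WT replicate 1, at 3.07 FPKM against 0.75 to 1.18. The high Mt1 and Mt2 values of WT replicates 1 and 2 did not meet this measure, because 2 libraries shared them.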

How the results depend on the processing

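Mt1, Mt2 and Mtf1 stayed on the same side of the threshold in all settings in which they were tested, while the signs of the small differences did not hold. Mt1 was -0.03 with the replicate block and -0.60 with the macrophage covariate, and -0.09 to 0.34 over the fits without 1 library. Mt2 was 0.06 with equal totals, 0.45 with CD8 T cell identity scaling, 0.28 without WT replicate 2 and IL27ra KO replicate 4 together, and -0.53 to 0.08 without 1 library. Equal totals and CD8 identity scaling moved the median of all genes to 0.29 and 0.63. With the latter Mtf1 was 0.06 and Slc30a1 0.46. With a pseudocount of 0.1 Mt3 was -1.92. The log2 ratio of Mt1 to Slc30a1 differed by 0.04 with a pseudocount of 5, 0.35 with CD8 identity scaling, 0.28 without those 2 libraries together, and -0.25 to 0.23 without 1 library. Leaving out the filter gave Slc30a1 and Mt3 a test, which neither passed (limma, adjusted p = 0.789 and 0.539). The count of 440 changed genes was 219 at 5 FPKM, where fewer genes were tested, 1418 with CD8 identity scaling, 1075 with the robust fit, 974 with library weights, 6 with the macrophage covariate, 291 with the melanoma covariate, 894 without those 2 libraries together, and 227 to 639 without 1 library, lowest without IL27ra KO replicate 3. The split of 325 higher and 115 lower became 525 and 65 with equal totals and 1366 and 52 with CD8 identity scaling. Where not said, the cause was not tested. Replicate numbers are shared by the groups, but same-numbered libraries did not deviate together (correlations -0.147 to 0.003). The values thus show no pairing by number, and they cannot tell whether same-numbered libraries shared a day or batch. The replicate block gave 273 changed genes, and 0 of 4 IL27ra KO libraries correlated best with the WT library of their number. With 5 and 4 libraries, changes inside the printed intervals cannot be resolved, and for Mt3 and Slc30a1 the few fragments limit any comparison.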

Other observations

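Genes that handle iron and genes that respond to glucocorticoids were listed beside the zinc genes and are given here as values. Of 11 tested iron handling genes 3 rose, beside 3.13% of all tested genes, with a median change of 0.46. Slc11a1, a metal transporter of phagosomes, had 0.62, 2.90, 0, 2.21 and 1.88 FPKM in WT and 11.4, 10.6, 13.6 and 5.13 FPKM in IL27ra KO (log2 change 2.24; limma, adjusted p = 0.00395). Hfe, a regulator of iron uptake, rose by 1.61 and Steap3, a ferrireductase, by 1.14 (adjusted p = 0.0244 and 0.0438). The Hfe call did not hold in the fits that left out IL27ra KO replicate 1, 2 or 3 or WT replicate 1 or 3, with adjusted p up to 0.109. That of Steap3 did not hold when IL27ra KO replicate 1, 2 or 3 or WT replicate 2, 4 or 5 was left out, with adjusted p up to 0.166. Ftl1, ferritin light chain, had 739 ± 185.5 FPKM in WT and 1121 ± 122 in IL27ra KO (SD, n = 5 and n = 4; adjusted p = 0.229). In the same libraries 20 of 21 macrophage and monocyte genes rose, with summed levels of 83.5 to 391 FPKM in WT and 511.8 to 1762 FPKM in IL27ra KO. With that list's level as a covariate none of the 3 calls held, Slc11a1 going to -0.21 (limma, adjusted p = 0.883). That level did not overlap between the groups (1.11 to 2.68 in WT, 3.47 to 4.93 in IL27ra KO), so the fit cannot tell it from the genotype. Only 6 of all tested genes passed in that fit.

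Of 10 glucocorticoid response genes 2 rose, beside 3.13% of all tested genes, with a median change of 0.03. Zfp36, which encodes tristetraprolin, a protein that destabilizes mRNA, had 26.8 to 37.4 FPKM in WT and 64.3 to 87.0 FPKM in IL27ra KO (log2 change 1.15; limma, adjusted p = 0.00314). Sgk1, a serum and glucocorticoid regulated kinase, had 7.53 to 30.8 and 37.8 to 53.2 FPKM (1.39, adjusted p = 0.0176), and it missed the threshold when IL27ra KO replicate 2 or 3 was left out (adjusted p = 0.0633 and 0.0545). The groups did not overlap for either gene, against 6.73% of all tested genes, and both genes were named for their small p. With the macrophage level as a covariate neither passed (Zfp36 0.96, adjusted p = 0.395; Sgk1 2.87, adjusted p = 0.0976), and Sgk1 also missed with the melanoma level as a covariate (1.19, adjusted p = 0.0713) and with the replicate block (1.39, adjusted p = 0.0562). As for the iron genes, the fit with the macrophage level cannot tell that level from the genotype. Dusp1 and Per1 had differences of 0.52 and -0.42 and did not pass (adjusted p = 0.407 and 0.443).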
